A study of Mus musculus with 2 samples.

Results

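The eicosanoid and phospholipase genes described here are 10 mouse genes in or next to the pathway that turns membrane phospholipid into prostaglandins and leukotrienes. The phospholipases A2 are Pla2g7, Pla2g4a and Pla2g15, of which Pla2g7 acts on platelet-activating factor and oxidised phospholipids. The others are the cyclooxygenases Ptgs1 and Ptgs2, the prostaglandin synthases Ptges and Hpgds, and the leukotriene genes Alox5, Alox5ap and Ltc4s. All 10 were chosen by name, with their values on these arrays already known, and each was read from its probe set of highest mean. A probe set of 1 gene was found for 9 of the 10, among 19938 genes with such a probe set, and each of the 9 had 1 probe set only. No probe set was annotated to Ptgs1 in the platform annotation used here, so it has no value below.

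RNA came from tibialis anterior muscle of 129Sv/C57BL6 mice aged 2 to 4 months, of both sexes, taken 7 days after injury of that muscle in the right leg with cardiotoxin (50 µl at 10 µM). Cardiotoxin is a snake venom peptide that kills muscle fibres and spares the stem cells that rebuild them. One group was Mef2a -/- and the other Mef2a +/+ (wild type). MEF2A is a transcription factor of muscle and other tissues. Each group was 1 pool of RNA from 5 mice on 1 array, so no value has a replicate error and no difference has a test. The extent of the Mef2a deletion, and the cells that carry it, are not stated in the labels.

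Eicosanoids are short-lived signalling lipids made from arachidonic acid. Cytosolic phospholipase A2 frees the fatty acid from membranes. The cyclooxygenases then make prostaglandin H2, which separate synthases turn into prostaglandins E2 and D2, while 5-lipoxygenase and its partner FLAP make leukotriene A4, the parent of leukotrienes B4 and C4. Macrophages, neutrophils and mast cells are known sources of these lipids in injured tissue, and prostaglandin E2 made through cyclooxygenase 2 is known to act on muscle stem cells during repair.

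Values are log2 expression values made by RMA, a method that corrects background, equalises the distributions of the arrays and summarises the probes of a set. Differences are given as labelled knockout minus wild type. The median of all values, 4.39, served as a floor: 11787 genes reached it in at least 1 pool and are called measurable. The Mef2a probe set read 9.06 in the labelled knockout pool and 8.92 in the wild type pool, while Mef2c and Mef2d differed by -0.08 and -0.05. Without the position of its probes relative to the deletion, Mef2a does not check the genotype label, and every direction below rests on the labels.

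The sequences upstream of 5 members are shown first: those of Pla2g7, Ptgs2 and Hpgds, which were higher in the labelled knockout pool, of Alox5, which encodes the lipoxygenase itself, and of Ltc4s, the single member that was lower. They are from RefSeq (GRCm38.p6), whose promoter table held a window for 9 of the 10 members, and each run gives the 250 bases before the annotated start on the gene's own strand. The stretches are chr17:43568201-43568450 (plus strand) for Pla2g7, chr1:150099781-150100030 (plus strand) for Ptgs2, chr6:65144731-65144980 (minus strand) for Hpgds, chr6:116461179-116461428 (minus strand) for Alox5 and chr11:50238533-50238782 (minus strand) for Ltc4s. Capitals mark matches to 6 motifs searched on both strands.
Pla2g7: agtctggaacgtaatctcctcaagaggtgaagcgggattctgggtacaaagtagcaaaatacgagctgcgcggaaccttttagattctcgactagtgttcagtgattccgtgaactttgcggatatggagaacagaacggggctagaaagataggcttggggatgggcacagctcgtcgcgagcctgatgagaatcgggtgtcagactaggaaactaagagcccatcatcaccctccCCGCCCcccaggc
Ptgs2: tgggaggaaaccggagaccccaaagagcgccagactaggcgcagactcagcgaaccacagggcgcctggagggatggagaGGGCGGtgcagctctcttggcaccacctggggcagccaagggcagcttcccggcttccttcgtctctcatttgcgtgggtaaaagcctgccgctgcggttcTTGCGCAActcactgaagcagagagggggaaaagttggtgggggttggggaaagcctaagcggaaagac
Hpgds: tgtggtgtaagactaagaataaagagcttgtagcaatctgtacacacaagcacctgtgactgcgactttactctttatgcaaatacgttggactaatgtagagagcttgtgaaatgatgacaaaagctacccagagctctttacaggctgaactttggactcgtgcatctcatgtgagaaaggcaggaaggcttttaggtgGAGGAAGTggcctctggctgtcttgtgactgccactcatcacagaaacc
Alox5: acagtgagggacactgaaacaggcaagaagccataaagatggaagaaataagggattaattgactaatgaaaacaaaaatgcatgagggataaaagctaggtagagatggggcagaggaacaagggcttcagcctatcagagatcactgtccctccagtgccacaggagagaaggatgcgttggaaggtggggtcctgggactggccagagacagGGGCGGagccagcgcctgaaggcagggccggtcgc
Ltc4s: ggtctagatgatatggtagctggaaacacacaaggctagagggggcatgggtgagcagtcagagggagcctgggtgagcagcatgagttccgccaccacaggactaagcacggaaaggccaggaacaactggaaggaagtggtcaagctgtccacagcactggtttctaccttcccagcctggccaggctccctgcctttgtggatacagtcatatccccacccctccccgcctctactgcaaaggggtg

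The motifs were the PU.1 site GAGGAAGT, the AP-1 site TGANTCA, the cyclic AMP response element core TGACGT, the GC box GGGCGG, the C/EBP site TTGCGCAA and the MEF2 site CTANNNNTAG, searched from 250 bases before to 50 bases after the start, and no match overlapped another. They were picked with these sequences in view. The GC box was found in 5 of the 9 members with a window (Pla2g7, Pla2g15, Ptgs2, Ptges and Alox5) and in 35.7% of all 32851 windows of the table. The PU.1 letters began 49 bases before the start of Hpgds and 24 bases before that of Ptgs1, against 3.2% of all windows with a match.

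The C/EBP letters began 69 bases before the start of Ptgs2 (0.183% of all windows hold them). Ptgs2 also held the cyclic AMP core on the minus strand, 13 bases into the transcript (7.51% of all windows), within the stretch below.
Ptgs2 site: gagtcaccactACGTCAcgtggagtccgct
The MEF2 letters (3.69% of all windows) and the AP-1 letters (7.81%) were in none of the 10 windows of the members. Upstream GC content was 52.8% for Pla2g7, 61.6% for Ptgs2, 45.2% for Hpgds, 52.8% for Alox5 and 57.6% for Ltc4s, beside a median of 52.4% over all windows. Pla2g7 and Ptgs2 held 14 and 13 CpG dinucleotides, and Hpgds and Ltc4s 3 each, beside a median of 6. These matches are descriptions of letters, not of bound sites.

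**Figure D1:**
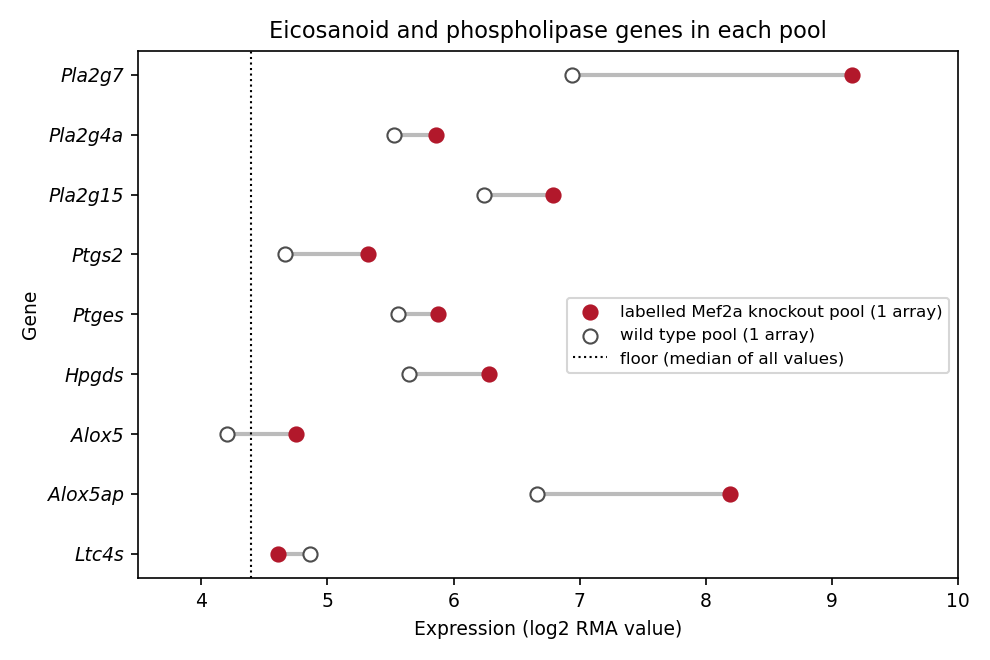
Expression (log2 RMA value, horizontal axis) of the 9 members with a probe set, 1 row per gene: filled points are the labelled Mef2a knockout pool, open points the wild type pool, 1 array each, and the dotted line is the floor of 4.39. Pla2g7 and Alox5ap have the widest gaps, and Ltc4s is the row where the wild type point lies to the right.

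Of the 9 members with a value, 8 read higher in the labelled knockout pool and 1 lower, and 4 were at least 1.5-fold higher: Pla2g7, Alox5ap, Ptgs2 and Hpgds. None was 1.5-fold lower. Over all measurable genes, 6.45% passed the same limit upwards and 1.90% downwards. Pla2g7 and Alox5ap were the members past 2-fold, a limit that 1.70% of measurable genes passed upwards and 0.187% downwards. The median difference of the 9 members was 0.55, against 0.03 over all measurable genes. Because the members were chosen with these differences known, the counts and the median describe them and test nothing. All 9 reached the floor, Alox5 through the labelled knockout pool alone.

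Of the phospholipases, Pla2g7 differed the most. It encodes the secreted platelet-activating factor acetylhydrolase, also called lipoprotein-associated phospholipase A2, which inactivates platelet-activating factor and cleaves oxidised phospholipids rather than releasing arachidonic acid. It read 9.16 in the labelled knockout pool and 6.94 in the wild type pool, a difference of 2.23 or 4.68-fold. Both values lay well above the floor, and the difference ranked 11 from the top of 11787 genes.

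Pla2g15, the phospholipase A2 of lysosomes, read 6.79 in the labelled knockout pool and 6.24 in the wild type pool. The difference of 0.55 (1.46-fold) lay just under the 1.5-fold limit, and 90.6% of measurable genes differed by less in size. Pla2g4a, the cytosolic phospholipase A2 that frees arachidonic acid for both branches, read 5.86 in the labelled knockout pool and 5.53 in the wild type pool. Its difference of 0.33 (1.26-fold) was close to the robust SD of 0.28 of the difference over all measurable genes. Thus the enzyme at the head of the arachidonate pathway differed by much less than Pla2g7.

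Among the cyclooxygenases, Ptgs2 was the one measured. It encodes cyclooxygenase 2, the inducible form, and read 5.32 in the labelled knockout pool and 4.66 in the wild type pool, a difference of 0.66 or 1.58-fold. The wild type value stood 0.27 above the floor, where RMA values understate differences. Ptgs2 and Pla2g4a are next to each other among the protein-coding genes of chromosome 1 in the RefSeq table (GRCm38.p6), and they differed by 0.66 and 0.33.

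Both prostaglandin synthases read higher in the labelled knockout pool. Hpgds, the haematopoietic prostaglandin D synthase, which is found in mast cells, some macrophages and T cells, read 6.28 in the labelled knockout pool and 5.65 in the wild type pool. Its difference of 0.63 (1.55-fold) was the smallest of the 4 past the limit. Ptges, the inducible microsomal prostaglandin E synthase that often works with cyclooxygenase 2, read 5.88 in the labelled knockout pool and 5.56 in the wild type pool. The difference was 0.32 (1.25-fold), and 16.5% of measurable genes were higher by more.

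Of the leukotriene members, Alox5ap and Alox5 read higher in the labelled knockout pool, and Ltc4s slightly lower. Alox5ap encodes FLAP, the membrane protein that hands arachidonic acid to 5-lipoxygenase. It read 8.19 in the labelled knockout pool and 6.66 in the wild type pool, a difference of 1.53 or 2.88-fold that ranked 47 from the top. Alox5, 5-lipoxygenase itself, read 4.75 in the labelled knockout pool and 4.20 in the wild type pool. The wild type value stood at -0.19 relative to the floor, and the difference of 0.55 (1.46-fold) lay just under the 1.5-fold limit, or past it at 0.63 once a trend on mean expression was removed.

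Ltc4s, which joins leukotriene A4 to glutathione to make leukotriene C4, read 4.61 in the labelled knockout pool and 4.86 in the wild type pool. At -0.24 on the log2 scale (1.18-fold lower) it was the lower member, with both values within 0.46 of the floor. This difference was smaller in size than the robust SD of 0.28 over all measurable genes. FLAP and leukotriene C4 synthase belong to the same family of small membrane proteins, as does microsomal prostaglandin E synthase, and these 3 relatives differed by 1.53, -0.24 and 0.32. The limit of 1.5-fold corresponds to 0.585 on the log2 scale, so Hpgds at 0.63 lay just past it, and Pla2g15 and Alox5, at 0.55 each, just short of it.

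**Figure D2:**
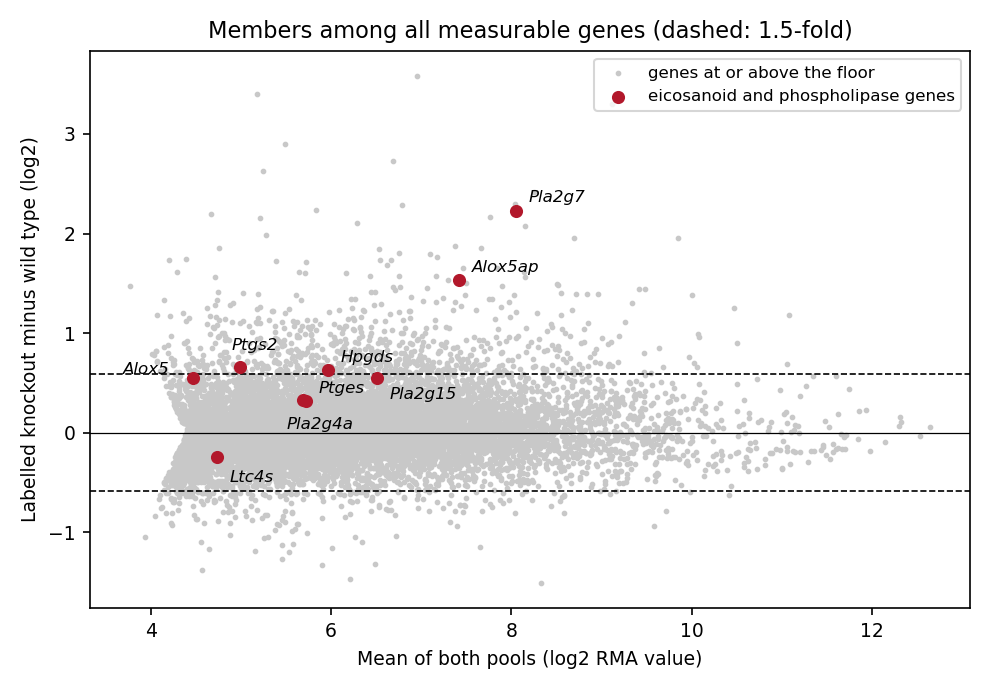
Difference between the pools (labelled knockout minus wild type, log2, vertical axis) against the mean of both pools (log2 RMA value, horizontal axis) for the 11787 measurable genes in grey and the 9 members in red, with dashed lines at 1.5-fold. Pla2g7 at 2.23 and Alox5ap at 1.53 stand at the upper edge of the cloud, and Pla2g4a, Ptges and Ltc4s lie within its body.

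The rest of the pathway and genes related to it were read from 11 lists of genes chosen by function. Because these lists were drawn up with earlier results of these data known, their counts and medians are descriptions and test nothing. The lists held 151 genes in all, with no gene in more than 1 list. Of these, 140 had a probe set and 101 were measurable. Without the 9 members, 28 of the remaining 92 measurable genes passed 1.5-fold upwards in the labelled knockout pool, 6 of them past 2-fold, and 1 passed 1.5-fold downwards. Their median difference was 0.23, against 0.03 over all measurable genes. Of the 28, 7 were from the list of annexins and lipid-binding proteins. Over all measurable genes, 6.45% passed 1.5-fold upwards, 1.70% passed 2-fold upwards and 1.90% passed 1.5-fold downwards. These shares also stand beside the counts of each list below. For 4 pathway genes counted as higher (Slco2a1, Cysltr1, Plcb2 and Cyp2s1) the wild type value lay below the floor, so that their folds are poorly bounded and they passed the floor through the pool where they were high.

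Most of the phospholipase A2 family differed little between the pools. Of 20 measurable members of that list, 2 were at least 1.5-fold higher (Pla2g7 and Pla2g2d), none was 1.5-fold lower and 18 lay within the limit, with a median of -0.05. Pla2g2d, a secreted phospholipase A2 found in dendritic cells and macrophages of lymphoid tissue, read 5.35 in the labelled knockout pool and 4.59 in the wild type pool (1.7-fold higher). Pla2g4e, another cytosolic family member, read 6.46 in the labelled knockout pool and 6.92 in the wild type pool, a difference of -0.45. Pnpla3, a lipase of lipid droplets, differed by -0.37.

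Prostanoid synthesis genes went both ways. Of 10 measurable genes 3 passed 1.5-fold upwards (Ptgs2, Hpgds and Tbxas1) and 1 downwards, with a median of 0.26. Tbxas1, the thromboxane A synthase of platelets and macrophages, read 5.83 in the labelled knockout pool and 5.20 in the wild type pool (1.54-fold higher). Prxl2b, a prostaglandin F synthase, read 7.53 in the labelled knockout pool and 8.21 in the wild type pool (1.6-fold lower), and Ptges2, which encodes a second membrane-associated prostaglandin E synthase, differed by -0.45. The 3 genes named for prostaglandin E synthases thus differed by 0.32 for Ptges, -0.45 for Ptges2 and, chosen after its value was seen, 0.24 for Ptges3.

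Receptors for prostanoids were mostly below the floor. Of 9 genes, 4 were measurable, none was past 1.5-fold, and the median was -0.04. Ptger4, a prostaglandin E2 receptor, differed by 0.09, Tbxa2r, the thromboxane receptor, by -0.15, and Ptger1, another prostaglandin E2 receptor, by -0.43. Ptger1 reached the floor through the wild type pool alone, at 4.75 against 4.32 in the labelled knockout pool. Among 6 measurable genes of transport and breakdown, 1 was past the limit: Slco2a1, the transporter that brings prostaglandins into cells for breakdown, read 5.31 in the labelled knockout pool and 4.31 in the wild type pool (2.01-fold higher). Hpgd, the dehydrogenase that inactivates prostaglandins, chosen after its value was seen, differed by 0.03, a value that turned to -0.02 with the trend on mean expression removed. Cbr3 and Ptgr1, both reductases, differed by 0.36 and 0.23, and the wild type value of Cbr3, 4.31, lay below the floor.

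**Figure D3:**
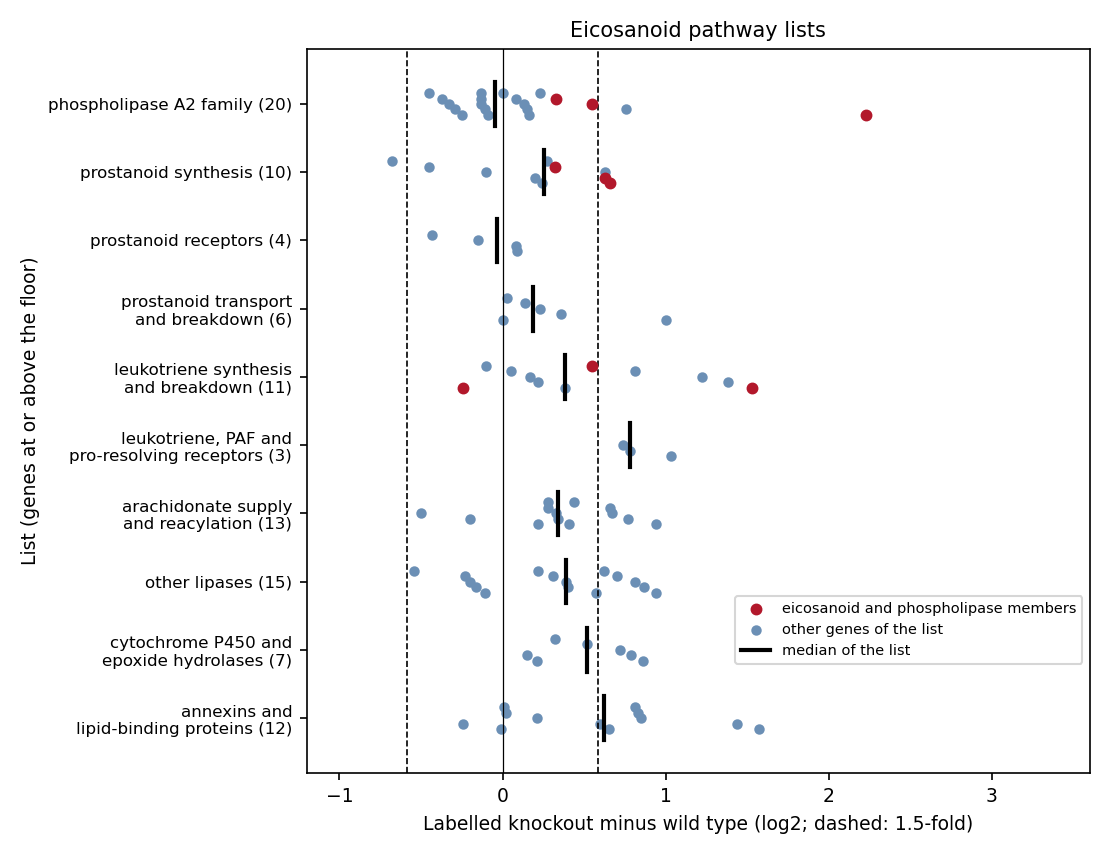
Difference between the pools (labelled knockout minus wild type, log2, horizontal axis) for the measurable genes of each pathway list (rows, number of genes in brackets): red points are the members, blue points other genes, black bars the median, dashed lines 1.5-fold. The list of 6 other lipoxygenases is not drawn because none reached the floor. The medians run from -0.05 for the phospholipase A2 family to 0.78 for the leukotriene and related receptors.

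Of the leukotriene genes other than the members, 8 were measurable, and 3 of these passed 1.5-fold upwards and none downwards. Their median difference was 0.30, or 0.38 over all 11 measurable genes of the list with the 3 members included. Dpep2, a dipeptidase that converts leukotriene D4 to leukotriene E4, read 6.30 in the labelled knockout pool and 4.92 in the wild type pool (2.61-fold higher). Cotl1, coactosin-like protein, which binds 5-lipoxygenase, read 7.48 in the labelled knockout pool and 6.26 in the wild type pool (2.33-fold higher). Mgst1, a microsomal glutathione transferase of the FLAP family, was 1.76-fold higher. Lta4h, the hydrolase that makes leukotriene B4, was chosen after its value was seen and differed by 0.38. The other lipoxygenases, Alox15 and Alox12 (named for their role) among them, all 6 lay below the floor in both pools, from 2.54 to 4.19 in the labelled knockout pool and from 2.65 to 4.13 in the wild type pool.

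Of 12 listed receptors for leukotrienes, platelet-activating factor and pro-resolving lipids, 9 had a probe set. Ltb4r2, Fpr1 and Fpr2 had none. Of the 9, 3 were measurable, and these 3 were at least 1.5-fold higher, beside 6.45% of all measurable genes. Ptafr, the receptor of the lipid that Pla2g7 inactivates, read 7.19 in the labelled knockout pool and 6.16 in the wild type pool (2.04-fold higher). Cmklr1, a receptor for chemerin that is also reported to bind resolvin E1, read 6.74 in the labelled knockout pool and 5.96 in the wild type pool (1.72-fold higher). Cysltr1, a receptor for cysteinyl leukotrienes, read 4.85 in the labelled knockout pool and 4.10 in the wild type pool, below the floor. It thus counted as measurable only through the pool where it was high. The leukotriene B4 receptor Ltb4r1, chosen after its value was seen, read 3.24 in both pools, below the floor.

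In the list of arachidonate supply and phospholipid reacylation, some genes were higher. Of 13 measurable genes 4 passed 1.5-fold upwards, none downwards and 9 did not pass, with a median of 0.34. Acsl6 at -0.50 and Mboat2 at -0.20, both chosen after their values were seen, lay on the other side of 0. Lpcat3, Mboat7 and Acsl4, chosen in the same way, differed by 0.41, 0.34 and 0.28, all within 1.5-fold. Lpcat1, a lysophospholipid acyltransferase, read 7.01 in the labelled knockout pool and 6.07 in the wild type pool (1.92-fold higher), Acsl5, an acyl-CoA synthetase, was 1.71-fold higher, and Fads1, the delta-5 desaturase that makes arachidonic acid, 1.59-fold higher. Of 12 annexins and lipid-binding proteins 7 were past 1.5-fold upwards, beside 6.45% of all measurable genes, and none downwards. The median of the 12 was 0.62. Fabp5, a fatty acid binding protein, read 7.95 in the labelled knockout pool and 6.38 in the wild type pool (2.98-fold higher), and Anxa1, a glucocorticoid-induced protein known to restrain phospholipase A2, read 10.21 in the labelled knockout pool and 8.76 in the wild type pool (2.72-fold higher). Anxa5, which binds phosphatidylserine, was 1.8-fold higher. Others of the list, chosen after their values were seen, differed little or were lower: Anxa6 by 0.02, Anxa11 by 0.01, Fabp4 by -0.01 and Fabp3 by -0.24.

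Markers of macrophages and monocytes were higher in the same RNA, and more cells of a type and more RNA per cell cannot be told apart in bulk muscle. Of 24 listed macrophage and monocyte genes, 23 had a probe set, all 23 were measurable, 19 were at least 1.5-fold higher and none was lower. Their median difference was 1.0, and their summed signal on the linear scale was 11885 in the labelled knockout pool and 5170 in the wild type pool. Pla2g7 differed by more than every one of the 23, the largest of which was Msr1 at 2.11, and Alox5ap by more than 19 of them. As the members were chosen with their differences known, this order describes them and tests nothing. The other 7 members differed from the macrophage median by -0.34 (Ptgs2) to -1.24 (Ltc4s). The part of the macrophage genes in the members' differences was not tested.

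Markers of other cells that make eicosanoids were mostly below the floor. Those named here were chosen after their values were seen. Of 10 mast cell genes 4 were measurable, none was past 1.5-fold, and their summed signal was 99 in the labelled knockout pool and 109 in the wild type pool. Kit, which other cells also express, read 5.04 in the labelled knockout pool and 4.82 in the wild type pool, and the protease genes Tpsb2, Mcpt4 and Tpsab1 differed by -0.10, -0.33 and -0.48. Tpsab1 reached the floor through the wild type pool alone, at 4.74 against 4.27 in the labelled knockout pool. The other 6, among them Fcer1a, Ms4a2, Cpa3 and Cma1, lay below the floor in both pools. Of 11 neutrophil genes 2 reached the floor. Lcn2 read 5.65 in the labelled knockout pool and 4.71 in the wild type pool and was past the limit at 1.92-fold higher, and Csf3r read 5.16 in the labelled knockout pool and 4.78 in the wild type pool, with a summed signal of 86 in the labelled knockout pool and 54 in the wild type pool. Ly6g, S100a8 and S100a9 were below the floor in both pools. All 7 eosinophil and basophil genes and all 8 lymphocyte genes with a probe set were below the floor. Of 5 platelet genes with a probe set, Ppbp, Gp9 and Itga2b were too. Treml1 read 5.61 in the labelled knockout pool and 5.43 in the wild type pool, and Pf4 read 5.28 in the labelled knockout pool and 4.76 in the wild type pool, neither past 1.5-fold.

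Markers of the tissue itself had smaller medians than the 1.0 of the macrophage and monocyte genes, though single genes passed the limit. All 12 muscle fibre genes were measurable, as the labelled tissue calls for, and all read lower in the labelled knockout pool, 1 of them by 1.5-fold, with a median of -0.18. The 9 fibroblast genes had a median of 0.12 with 1 past the limit, and the 8 endothelial genes a median of -0.02 with 1 past the limit, Vwf at 0.84. The 8 satellite cell and myoblast genes had a median of -0.13 with 1 past the limit, Chodl at -0.91. The 8 mural and smooth muscle genes had a median of 0.08 with 1 past the limit, Pdgfrb at 0.65. Of 6 measurable dendritic cell genes, some of which macrophages share, 2 were past the limit, Itgax at 1.53 and Cd74 at 0.69, and the median was 0.29.

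**Figure D4:**
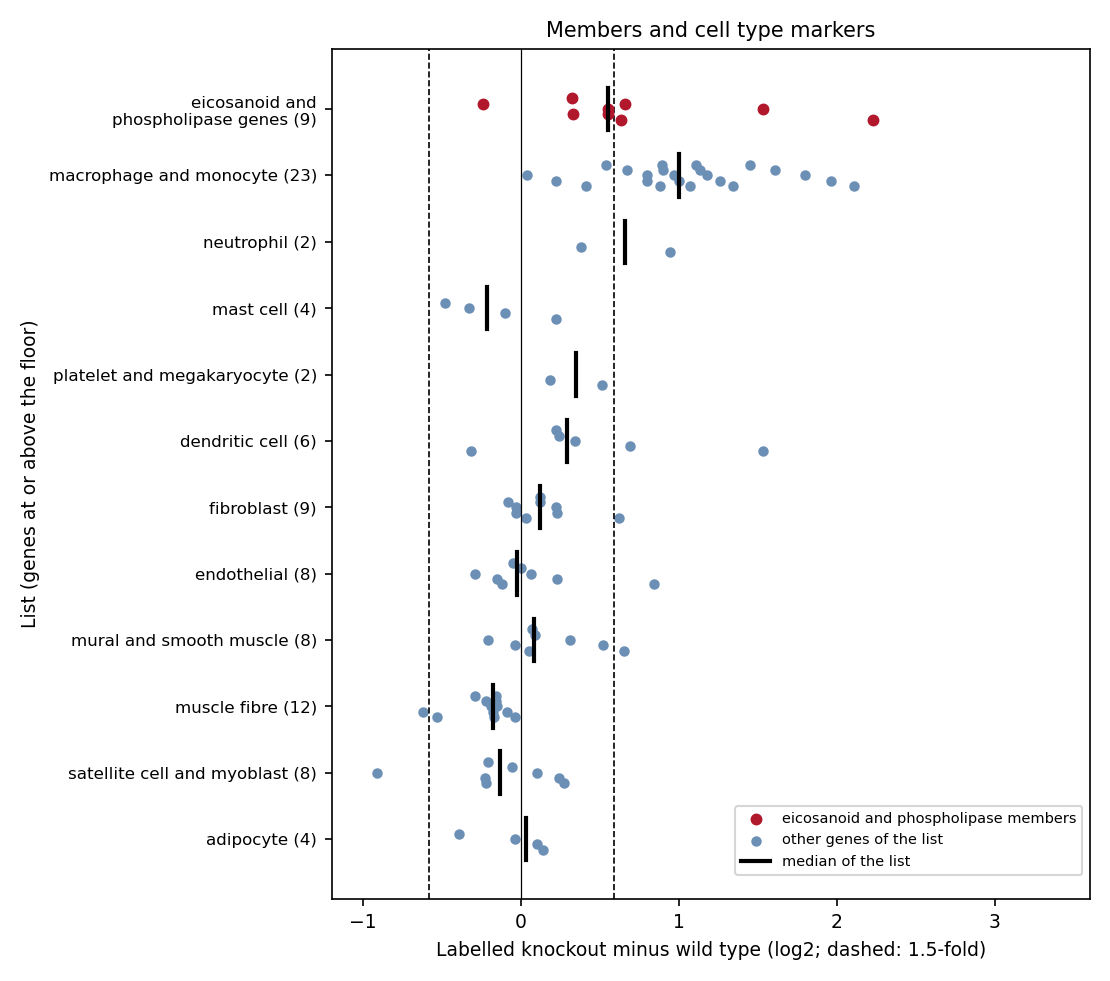
Difference between the pools (labelled knockout minus wild type, log2, horizontal axis) for the 9 members (top row, red) and for the measurable genes of each cell type list (blue; number of genes in brackets), with black bars at the median and dashed lines at 1.5-fold. The macrophage and monocyte median is 1.0 and that of the members 0.55. The mast cell, muscle fibre, satellite cell and endothelial medians lie below 0, the last at -0.02. Lists with no gene at the floor are not drawn.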

How the data were processed

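The deposited table holds 1 log2 expression value per probe set for each of 2 arrays, which the authors made with RMA; the submitters' processing notes name Affymetrix Expression Console, without a version. Per the labels' protocols, RNA of 5 muscles was pooled per genotype. After sorting, the columns differ by at most 0.139, so a change shared by most genes cannot be seen. Of 35557 probe sets, 21789 had 1 gene symbol in the platform annotation, 1621 several and 12147 none. Only the first kind was used, with the probe set of highest mean per gene, and 21698 had their gene identifier in RefSeq (GRCm38.p6). Differences were computed with Python 3.11.15, pandas 2.3.3 and numpy 2.4.6, and counted past 1.5-fold and 2-fold, without a test. Counting was tested on simulated data. The number of arrays limits the precision. The members and the lists were chosen with earlier results of these data known. Named genes are the members, the Mef2 genes, and up to 3 further genes per pathway list with the largest differences at the floor; others, cell type markers among them, were chosen after their values were seen. With 2 arrays, no gene of like pattern was sought. Alternatives were other floors, the mean of all probe sets, median centring, a loess trend (statsmodels 0.14.6, span 0.3) and the 2-fold limit.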

Additional observations from a re-analysis of the deposited data

How the results depend on the processing

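The count of members at least 1.5-fold higher was 4 as reported and 2 at the 2-fold limit, and lay between 3 and 5 under the other alternatives (5 with the loess trend removed, where Alox5 reached 0.63). Dropping the floor or averaging probe sets could not change this count, since all 9 members reached the floor with 1 probe set each. The members' median difference of 0.55 lay between 0.52 and 0.59 under other scalings, and was 1.08 with a stricter floor of 6.18 (the 75th percentile), which left 4 members. Of these 4, Hpgds passed the stricter floor through the labelled knockout pool alone, at 6.28 against 5.65 in the wild type pool. The value of 1.08 thus depends in part on a gene let in by the pool where it was high. Over the pathway lists, 32 genes were at least 1.5-fold higher, with 24 to 33 under other floors, probe set choices and scalings and 8 at the 2-fold limit. The count of lower pathway genes was 1 (Prxl2b), and was 2 with no floor, 2 with the loess trend removed and 0 at the 2-fold limit. Of 27 single member values under alternatives, 26 stayed on the same side of 1.5-fold and none changed sign. Much of this was fixed in advance. The mean of all probe sets equals the value used for each member, and median centring only subtracts 0.03 from every gene. No paired analysis was possible because each genotype has 1 array, and for the same reason no replicate could be left out. Values near the floor, those of Alox5, Ltc4s and Ptgs2 among the members, are limited by signal over background.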

Other observations

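A list of phospholipase C, phospholipase D and other lipase genes outside the phospholipase A2 family was also higher in part. Release of arachidonic acid by their products was not measured. Of 15 measurable genes of that list, 5 were at least 1.5-fold higher in the labelled knockout pool and none was 1.5-fold lower, with a median of 0.39 beside 0.03 over all measurable genes. Plcb2 and Plcg2, phospholipases C of blood cells, were 1.92-fold and 1.75-fold higher, Plcb2 from a wild type value of 4.38 just below the floor. Pld3, a lysosomal member of the phospholipase D family, read 8.96 in the labelled knockout pool and 8.09 in the wild type pool (1.83-fold higher). Mgll, the monoacylglycerol lipase that is a known source of arachidonic acid in brain, was chosen after its value was seen and differed by -0.20. The macrophage and monocyte markers had a median of 1.0 in the same RNA, and their part in these differences was not tested.

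In the cytochrome P450 and epoxide hydrolase branch, 7 of 14 genes with a probe set were measurable, 3 of them at least 1.5-fold higher and none lower. Cyp1b1 read 6.22 in the labelled knockout pool and 5.36 in the wild type pool (1.82-fold higher), and Ephx1, the microsomal epoxide hydrolase, 7.27 in the labelled knockout pool and 6.55 in the wild type pool (1.64-fold higher). Cyp2s1 read 4.41 in the labelled knockout pool and 3.62 in the wild type pool, at and below the floor. Ephx2, the soluble epoxide hydrolase that breaks down arachidonate epoxides, was chosen after its value was seen and differed by 0.32.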
